A study of Mus musculus with 29 samples.

Results

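The genes described here are 9 components of the transforming growth factor beta (TGF-beta) pathway: the ligands Tgfb1, Tgfb2 and Tgfb3, the ligand-storage protein gene Ltbp1, the receptors Tgfbr1, Tgfbr2 and Tgfbr3, and the induced genes Pmepa1 and Tgfbi. They were taken by name from a table of 51912 mouse gene IDs, and all 9 were found. Tgfb1 was also chosen by its higher level at postnatal day 8 (PND8), and Pmepa1 by its lower level in the mutant at that age, so those values are given as descriptions with no test. The data are bulk RNA sequencing of cells dissociated from mouse ovaries, 29 libraries in 8 groups. Wild-type (Cdkn1b+/+) and Cdkn1b-/- ovaries were compared at 2 ages before birth, E13.5 and E18.5 in days of embryonic development, and at 2 after it, PND8 and the adult age of 12 weeks (12wk). Each age had 4 wild-type libraries. The Cdkn1b-/- group, labelled p27null and called null here, had 4 libraries at E18.5 and 3 at each of the other ages. Cdkn1b encodes p27Kip1, an inhibitor of cyclin-dependent kinases. The labels give no strain, and they do not say whether a library came from 1 animal or from pooled ovaries, so p-values measure the spread between these libraries, which may be partly technical.

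TGF-beta ligands are secreted in a latent form, tied by their own propeptide to a latent TGF-beta binding protein such as the product of Ltbp1, which anchors the complex in the extracellular matrix. Once released, a ligand dimer binds the type II receptor (Tgfbr2), which phosphorylates the type I receptor (Tgfbr1). The type I receptor then phosphorylates Smad2 and Smad3, which enter the nucleus with Smad4. The co-receptor betaglycan (Tgfbr3) presents ligand, above all TGF-beta 2, and also binds inhibin, a hormone of granulosa cells. Pmepa1 is a direct Smad target whose product holds back receptor-activated Smads, and Tgfbi encodes a secreted matrix protein named for its induction by TGF-beta. In the ovary the pathway acts in stroma, theca and granulosa cells.

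The ligand genes lie apart in the genome. In the GENCODE M21 annotation of GRCm38, Tgfb1 (ENSMUSG00000002603) spans chr7:25687002-25705077 on the plus strand. Tgfb2 (ENSMUSG00000039239) spans chr1:186622792-186705989 and Tgfb3 (ENSMUSG00000021253) chr12:86056745-86079041, both on the minus strand. The 250 bases before the transcription start of Tgfb1 (chr7:25686752-25687001, plus strand) and of Tgfb2 (chr1:186705990-186706239, minus strand) are shown because these ligands had opposite age patterns. They are RefSeq sequences of GRCm38.p6, printed 5′ to 3′, with every match to a searched motif, on either strand, in capitals.
Tgfb1: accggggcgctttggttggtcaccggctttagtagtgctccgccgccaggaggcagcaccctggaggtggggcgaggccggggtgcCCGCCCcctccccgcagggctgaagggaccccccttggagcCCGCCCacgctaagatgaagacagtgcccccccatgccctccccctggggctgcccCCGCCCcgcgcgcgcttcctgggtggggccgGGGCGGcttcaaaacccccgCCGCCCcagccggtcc
Tgfb2: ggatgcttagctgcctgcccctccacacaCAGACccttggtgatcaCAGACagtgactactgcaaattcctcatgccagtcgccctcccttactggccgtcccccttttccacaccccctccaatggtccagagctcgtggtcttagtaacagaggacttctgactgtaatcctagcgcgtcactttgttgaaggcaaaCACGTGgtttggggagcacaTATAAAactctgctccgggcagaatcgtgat
The Tgfb1 window was 75.2% G and C and held 5 GC boxes (GGGCGG, or CCGCCC on the other strand), whose first bases lay 164, 123, 67, 36 and 16 bases before the start. It held no TATAAA. The Tgfb2 window was 53.6% G and C and held TATAAA with its first base 31 bases before the start, CACGTG at 51, and CAGAC, the letters of the Smad box, at 221 and 204. Of 32851 promoter windows of that length, 32.7% held GGGCGG, 12.4% TATAAA, 6.0% CACGTG and 42.2% CAGAC. The cyclic AMP response element TGACGTCA (1.5% of windows) and the AP-1 element TGANTCA (6.7%) were also searched and matched neither window. None of the printed matches overlapped another. A match is a run of letters, not a shown binding site. Entries were present for 6 of the 9 genes.

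Embryonic libraries held 14.1 to 24.9 M counts and postnatal ones 24.1 to 48.2 M. Levels are given as CPM, counts per 1 M counts of the library with TMM (trimmed-mean) factors over all 29 libraries, and 3 counts, taken as the smallest level a library can show, equal 0.0622 to 0.213 CPM. This floor covers counting error only. Cdkn1b was lower in null than in wild-type libraries at every age without overlap, at a fitted fold of 0.277 at 12wk, 0.479 at PND8, 0.120 at E18.5 and 0.192 at E13.5. Null libraries still held 65.0 to 79.8 CPM of Cdkn1b at PND8 and 42.1 to 56.2 at 12wk, beside 4.29 to 15.6 in the embryo. The labels do not say which part of the gene is deleted, so these counts do not show whether the postnatal null libraries lack p27Kip1. The embryonic and postnatal libraries stood apart in ways that age and library preparation could both give. AY036118, a transcript within the ribosomal RNA locus, had 0 counts in each of the 15 embryonic libraries and 4507 to 367128 counts in the 14 postnatal ones. Of 16 common reference genes, 13 differed between wild-type E18.5 and PND8 libraries, with log2 fold changes from -1.50 (Hprt) to 2.79 (Eef2). Between the same groups, the median log2 fold change rose from -0.63 in the fifth of genes with the lowest GC content to 0.48 in the highest. Whether embryonic and postnatal libraries were prepared together is not given in the sources used here, and the header of the count table names a pair of combined projects without saying which libraries came from which. Every difference between E18.5 and PND8 therefore carries both age and library, which cannot be told apart here. A wild-type E13.5 library, replicate 3, stood out with 18.97% of its counts on haemoglobin genes, against at most 3.59% in the others.

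**Figure D1:**
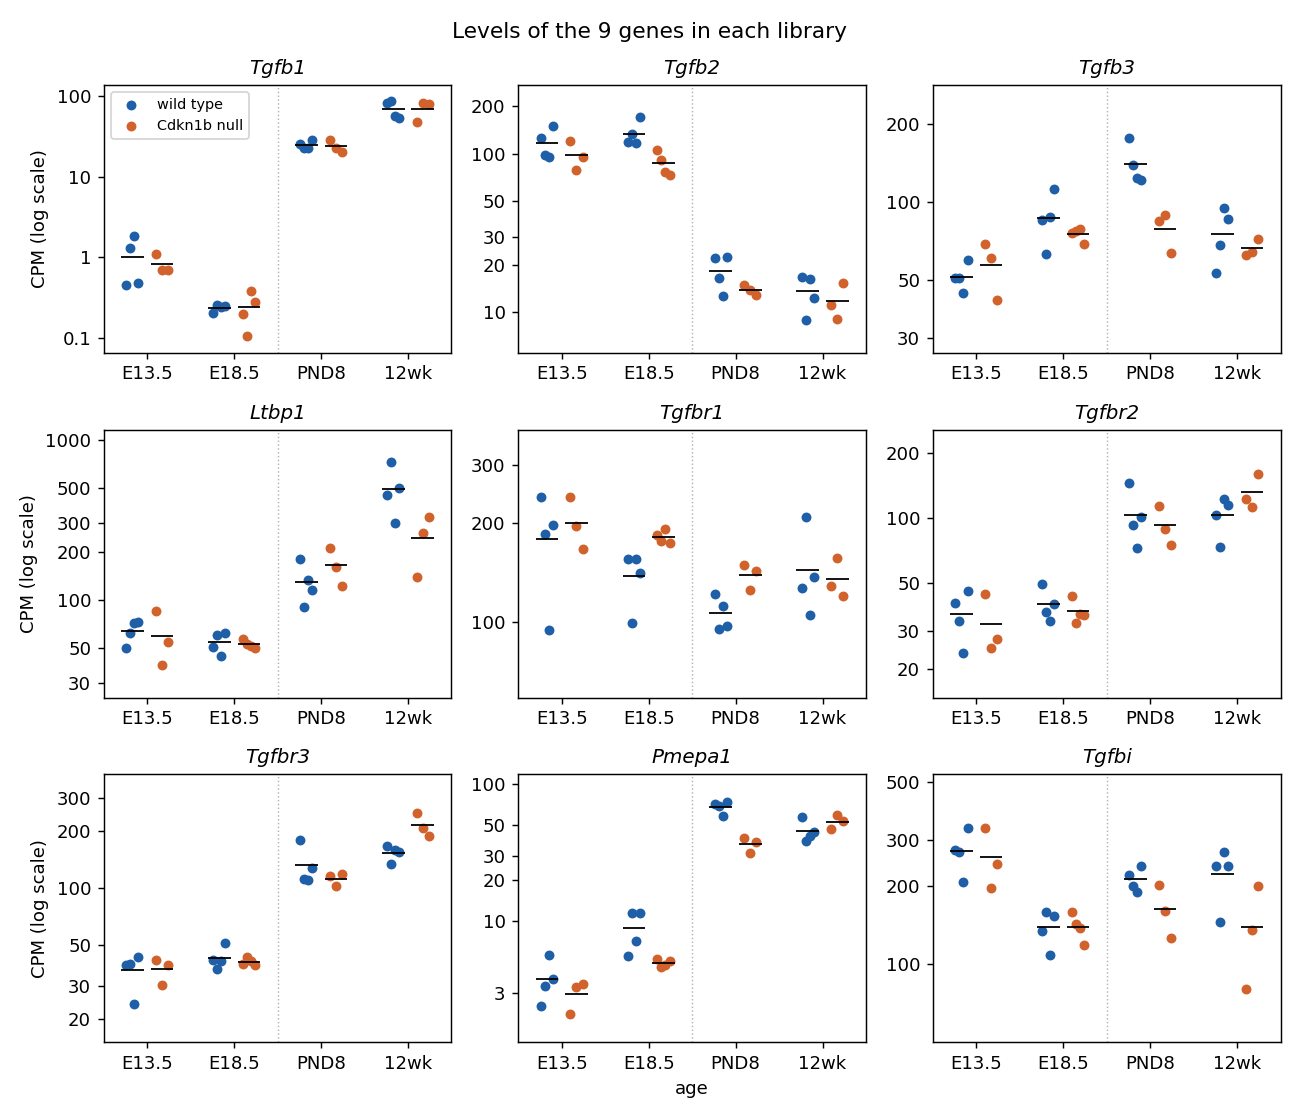
Level of each of the 9 genes in every library, in CPM on a log scale, by age and genotype; points are libraries, black lines group means, and the dotted line separates embryonic from postnatal libraries. Tgfb1 lies below 2 CPM in every embryonic library and above 20 in every postnatal one, Tgfb2 has the opposite pattern, and Pmepa1 at PND8 lies between 57.9 and 73.3 CPM in wild type and between 31.3 and 40.3 in null.

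Tgfb1 was close to the detection floor before birth and stood beside Tgfb3 as a main ligand message in the adult. In wild-type libraries it stood at 0.455, 1.29, 1.85 and 0.485 CPM at E13.5 and at 0.206, 0.256, 0.241 and 0.251 CPM at E18.5, the latter resting on 4 to 6 counts a library. At PND8 the 4 wild-type libraries gave 25.2, 22.4, 22.7 and 28.5 CPM, and at 12wk they gave 82.6, 85.6, 57.2 and 53.0 CPM. The highest E13.5 value came from the haemoglobin-rich library. Null libraries followed the same course: 1.10, 0.701 and 0.691 CPM at E13.5, 0.200, 0.105, 0.378 and 0.283 at E18.5, 28.4, 22.4 and 20.2 at PND8, and 48.0, 82.2 and 79.0 at 12wk. No embryonic library reached the lowest postnatal one. Between E18.5 and PND8 the fitted log2 difference was 6.58 (SE 0.21) in wild type and 6.52 (SE 0.29) in null, and between PND8 and 12wk it was 1.57 (SE 0.18) and 1.64 (SE 0.23). These 4 values are the ones for which the gene was picked. The difference of null from wild type was -0.08 (SE 0.14) at PND8 and 0.00 (SE 0.24) at 12wk, with adjusted p = 0.844 and 0.998 by edgeR's quasi-likelihood test with Benjamini-Hochberg adjustment over all genes tested, the test used throughout. A difference under an adjusted p of 0.05 is described as called.

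Tgfb2, the ligand that depends most on betaglycan, ran the other way. Wild-type libraries held 126, 97.6, 95.1 and 150 CPM at E13.5 and 118, 132, 117 and 170 CPM at E18.5, then 21.9, 16.4, 12.6 and 22.3 at PND8 and 16.8, 8.88, 16.1 and 12.3 at 12wk. Embryonic and postnatal values did not overlap. It fell between E18.5 and PND8 by 2.95 (SE 0.22) on the log2 scale in wild type (adjusted p = 9.2e-07) and by 2.71 (SE 0.13) in null (adjusted p = 4.98e-08). With an offset for GC content the wild-type value was -2.93.

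Tgfb2 was also the one gene of the set called between genotypes. At E18.5 the null libraries held 106, 91.2, 77.1 and 73.5 CPM, each below the lowest wild-type library. The fitted difference was -0.64 (SE 0.15), a fold of 0.644, with adjusted p = 0.0338. The call was kept when wild-type replicate 1, 2 or 3 or null replicate 1 was left out, 4 of 8 such fits. Without wild-type replicate 4 the difference was -0.50 (adjusted p = 0.0832), and without null replicate 2, 3 or 4 the adjusted p was 0.0733, 0.131 and 0.118. With all 8 groups in the same fit the adjusted p was 0.0921. At the other ages Tgfb2 differed by -0.28 (E13.5), -0.42 (PND8) and -0.19 (12wk), with overlapping groups and no call.

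Tgfb3 was the steadiest ligand and dominated at PND8. Wild-type libraries rose from 51.2, 50.9, 44.5 and 59.9 CPM at E13.5 to 85.6, 63.3, 87.7 and 112 at E18.5, a log2 change of 0.75 (SE 0.17, adjusted p = 0.00687). They held 177, 139, 124 and 122 CPM at PND8 and 53.3, 68.2, 94.8 and 86.0 at 12wk, so that PND8 stood above both neighbouring ages without overlap. The rise into PND8 was 0.61 (SE 0.18, adjusted p = 0.0108) and the fall after it 0.82 on the log2 scale (SE 0.19, adjusted p = 0.0121). The rise lost its call with the GC offset (0.38, adjusted p = 0.0772).

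No such peak was measured in null ovaries. There Tgfb3 held 76.3, 77.7, 78.8 and 69.0 CPM at E18.5, 84.7, 89.1 and 63.6 at PND8 and 62.8, 64.1 and 72.1 at 12wk, with log2 changes of 0.00 (SE 0.11) and -0.17 (SE 0.14), neither called. At PND8 each null library lay below each wild-type one, 79.1 ± 13.6 (SD, n = 3) against 141 ± 25.3 CPM (SD, n = 4). The genotype difference of -0.84 (SE 0.16) had adjusted p = 0.0817 in edgeR, and adjusted p = 5.73e-05 in DESeq2, so whether it is called depends on the tool. The genotype by age term for Tgfb3 gave adjusted p = 0.239, so the genotype effect was not shown to differ among ages. Ttll5, a tubulin ligase gene, overlaps Tgfb3 on the opposite strand, and the strandedness of the counting is not stated, so reads of the pair may not be fully separated.

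Per length of transcript the ligand make-up turned over with age. On the scale of CPM per kilobase of the longest annotated transcript, Tgfb2 made up 59.0% ± 3.39 (SD, n = 4) of the 3 ligands in wild-type E13.5 ovaries and Tgfb1 1.13% ± 0.871. At PND8 Tgfb3 supplied 75.7% ± 3.89 in wild type and 66.1% ± 3.11 (SD, n = 3) in null. By 12wk Tgfb1 supplied 51.8% ± 11.3 in wild type and 54.6% ± 6.76 in null, beside 43.1% and 40.6% from Tgfb3. The library ranges of these adult shares overlapped in wild type and just missed each other in null, at 47.3% to 60.7% for Tgfb1 and 36.0% to 47.2% for Tgfb3. The shares of a library sum to a fixed total, so they were not tested against each other.

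**Figure D2:**
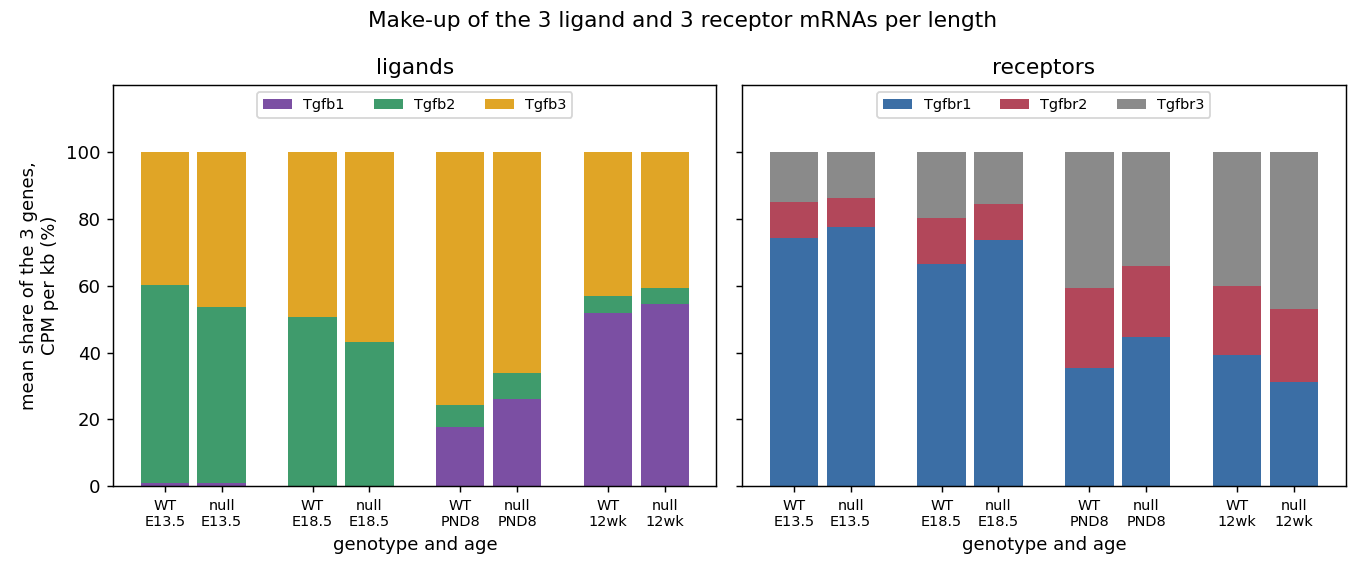
Mean share of each ligand (left) and each receptor (right) in the sum of its 3 genes, in percent of CPM per kilobase, by genotype and age; each bar is the mean of 3 or 4 libraries. Tgfb2 and Tgfb3 fill the ligand bars before birth, and Tgfb3 the largest part at PND8. At 12wk Tgfb1 and Tgfb3 together fill nearly the whole bar. Tgfbr1 makes up over 60% of receptor message before birth and under 50% after it, in shares not corrected for GC content.

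Ltbp1, which stores latent ligand in the matrix, rose at each postnatal step in wild type. Its libraries held 50.1, 61.5, 71.5 and 72.9 CPM at E13.5 and 50.6, 60.0, 44.6 and 62.0 at E18.5, then 180, 89.8, 132 and 115 at PND8 and 448, 722, 300 and 497 at 12wk. Each of the 12wk libraries lay above all PND8 libraries. The change into PND8 was 1.17 (SE 0.21, adjusted p = 0.000432), or 0.95 with the GC offset, and the change to 12wk was 2.00 (SE 0.30, adjusted p = 0.00164). At 12wk Ltbp1 stood at 73.7 CPM per kilobase in wild type, next to Tgfbi at 73.9, the highest of the 9 genes.

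In null ovaries Ltbp1 held 211, 160 and 121 CPM at PND8 and 138, 262 and 327 at 12wk, a log2 change of 0.66 (SE 0.35, adjusted p = 0.217) that was not called. Without null 12wk replicate 1, the lowest, it was 0.93 (adjusted p = 0.0423). The adult difference between genotypes was 242 ± 95.6 (SD, n = 3) against 492 ± 175 CPM (SD, n = 4), a log2 fold change of -1.02 (SE 0.37) with adjusted p = 0.476. The highest null library exceeded the lowest wild-type one. At PND8 the sign was opposite, 0.33 (SE 0.27), also with overlap. The genotype by age term had adjusted p = 0.282.

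Tgfbr1 (chr4:47353222-47414931), the kinase that phosphorylates Smad2 and Smad3, had wild-type values of 239, 185.3, 94.6 and 197 CPM at E13.5, 155, 99.5, 155 and 141 at E18.5, 122, 95.5, 112 and 97.1 at PND8, and 127, 209, 105 and 137 at 12wk. Its fall between E18.5 and PND8 was called in wild type (-0.45, SE 0.15, adjusted p = 0.0175) and in null (-0.45, SE 0.08, adjusted p = 0.000405). Both calls were lost with all 8 groups in the same fit (adjusted p = 0.118 and 0.136), and the wild-type call without PND8 replicate 2 (0.0831) or 4 (0.0808) or E18.5 replicate 3 (0.0557) or 4 (0.0503). Tgfbr1 has the lowest transcript GC content of the 9 genes, 41.0%, and with the GC offset the direction turned, to 0.15 (adjusted p = 0.365) and 0.06 (adjusted p = 0.489). No direction across birth is therefore given for Tgfbr1.

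Null ovaries held more Tgfbr1 at E18.5 and PND8, with groups that did not overlap at either age, though neither difference was called. At E18.5 the null libraries gave 184, 176, 191 and 174 CPM, a log2 difference of 0.39 (SE 0.14, adjusted p = 0.126). At PND8 they gave 149, 125 and 143 CPM, a difference of 0.37 (SE 0.10, adjusted p = 0.167; 0.0425 in DESeq2). A trend with GC content was also present between genotypes at PND8. The median log2 difference was 0.11 in the fifth of genes with the lowest GC content, which holds Tgfbr1, and -0.11 in the highest. It was -0.06 in the fifth next to the highest, which holds Tgfb3 and Pmepa1. At 12wk the groups overlapped, at -0.10 (SE 0.22).

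Tgfbr2 (chr9:116084293-116175360), the receptor that binds ligand first, and Tgfbr3 (chr5:107106570-107289629), betaglycan, changed in parallel. Wild-type Tgfbr2 held 40.7, 33.6, 23.7 and 45.8 CPM at E13.5, 49.5, 36.9, 33.6 and 40.2 at E18.5, 146, 93.1, 72.6 and 101 at PND8, and 104, 73.3, 123 and 115 at 12wk. Wild-type Tgfbr3 held 39.1, 39.4, 24.2 and 43.2 CPM at E13.5, 41.6, 37.0, 40.6 and 51.1 at E18.5, 179, 112, 111 and 127 at PND8, and 167, 134, 160 and 155 at 12wk. Both overlapped between the embryonic ages and were higher in every postnatal library. Into PND8, Tgfbr2 rose by 1.28 (SE 0.21, adjusted p = 0.000235) in wild type and 1.25 (SE 0.14) in null, and Tgfbr3 by 1.55 (SE 0.18, adjusted p = 1.87e-05) and 1.40 (SE 0.08). With the GC offset the wild-type values were 1.19 and 1.52, both still called. As a share of receptor message per length, Tgfbr1 went from 66.4% ± 4.04 (SD, n = 4) at E18.5 to 35.5% ± 4.64 at PND8 in wild type, and Tgfbr3 from 19.7% ± 2.64 to 40.8% ± 1.82. These shares are not corrected for GC content. When the fitted changes were applied to the E18.5 group means, Tgfbr1 went from 66.7% to 35.0% in wild type without the GC offset and to 45.9% with it. In null it went from 73.7% to 44.7% without the offset and to 53.9% with it. With the offset Tgfbr1 thus stayed the largest receptor share at PND8, beside 34.6% for Tgfbr3 in wild type and 28.7% in null.

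Tgfbr3 went on rising to adulthood in null ovaries, from 115, 102 and 119 CPM at PND8 to 252, 208 and 190 at 12wk, a log2 change of 1.03 (SE 0.12, adjusted p = 0.00178). In wild type the same step was 0.29 (SE 0.16, adjusted p = 0.216), and 0.48 (adjusted p = 0.0152) without wild-type PND8 replicate 1, the highest library of its group. Each null library at 12wk lay above each wild-type one, 216 ± 32.0 (SD, n = 3) against 154 ± 14.4 CPM (SD, n = 4). The adult genotype difference was 0.49 (SE 0.12), with adjusted p = 0.37. The genotype by age term had adjusted p = 0.329. Gm42900, a small unconfirmed transcript model, lies within Tgfbr3 on the same strand and took 3835 counts over all libraries.

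Pmepa1 (chr2:173224458-173276533), the Smad-induced brake on the pathway, was chosen for its lower PND8 level in null. Wild-type libraries held 2.41, 3.36, 5.62 and 3.75 CPM at E13.5, 5.52, 11.5, 7.09 and 11.4 at E18.5, 71.2, 68.6, 57.9 and 73.3 at PND8, and 57.3, 38.2, 41.7 and 44.7 at 12wk. Null libraries held 2.08, 3.31 and 3.46 at E13.5, 5.28, 4.60, 4.73 and 5.14 at E18.5, 40.3, 31.3 and 37.6 at PND8, and 46.8, 58.9 and 53.6 at 12wk. The groups overlapped at E13.5 and 12wk and did not overlap at E18.5 and PND8. At PND8, the comparison for which the gene was picked, the difference was -0.91 (SE 0.11), a fold of 0.531. At E18.5, libraries the choice did not use, it was -0.85 (SE 0.25), with adjusted p = 0.0728. That E18.5 difference was called with DESeq2 (adjusted p = 0.0189), with all 8 groups in the same fit (0.0232) and without wild-type replicate 1 (0.0231), but in no other of the 8 fits with a library removed. At 12wk the sign was opposite and small, 0.22 (SE 0.16, adjusted p = 0.707).

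With age Pmepa1 rose in both genotypes before birth, by 1.22 (SE 0.34, adjusted p = 0.0187) in wild type and by 0.77 (SE 0.26, adjusted p = 0.0494) in null. The wild-type call was lost without wild-type E18.5 replicate 2 (adjusted p = 0.0604) or 4 (0.0578) or wild-type E13.5 replicate 1 (0.0528). The null call was lost in each of 7 such fits. Between E18.5 and PND8 the difference was 2.84 (SE 0.24) in wild type and 2.81 (SE 0.13) in null. From PND8 to 12wk it was -0.50 (SE 0.14) in wild type and 0.63 (SE 0.12) in null, without overlap in either genotype, and these steps were part of the choice and were not tested.

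**Figure D3:**
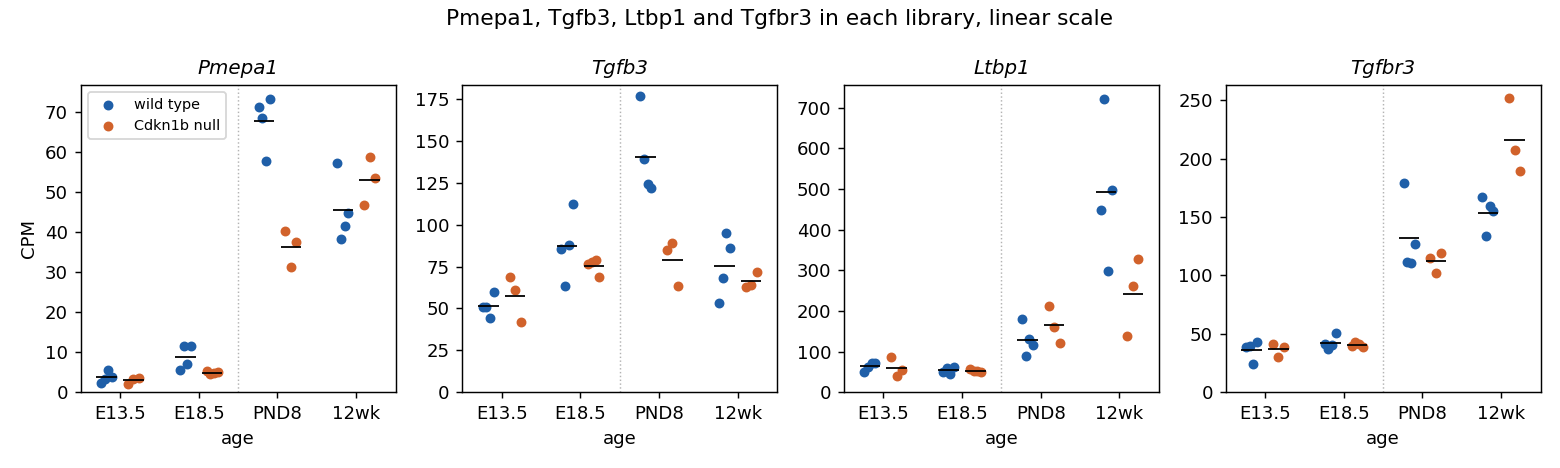
Pmepa1, Tgfb3, Ltbp1 and Tgfbr3 in every library, in CPM on a linear scale from 0, by age and genotype; points are libraries and black lines group means. Pmepa1 and Tgfb3 are lower in all 3 null libraries than in all 4 wild-type libraries at PND8, Tgfbr3 is higher in all 3 null libraries at 12wk, and the Ltbp1 groups overlap at 12wk; the panels were chosen after the values were seen.

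Tgfbi (chr13:56609523-56639562), the TGF-beta-induced matrix gene, had the highest level per length of the 9 genes in every group. Wild-type libraries held 274, 269, 207 and 333 CPM at E13.5, 133, 159, 109 and 153 at E18.5, 220, 200, 189 and 238 at PND8, and 237, 145, 268 and 238 at 12wk. Null libraries held 333, 196 and 242 at E13.5, 158, 142, 137 and 119 at E18.5, 202, 160 and 126 at PND8, and 80.4, 134.7 and 200 at 12wk. It fell between E13.5 and E18.5 by 0.98 on the log2 scale (SE 0.17, adjusted p = 0.00152) in wild type and by 0.87 (SE 0.18, adjusted p = 0.00729) in null, and both calls held whichever library was removed. The rise into PND8 in wild type, 0.53 (SE 0.14, adjusted p = 0.00589), became 0.30 (adjusted p = 0.078) with the GC offset. The genotype differences at PND8 (-0.40, SE 0.15, adjusted p = 0.273) and 12wk (-0.68, SE 0.33, adjusted p = 0.568) came with overlapping groups.

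Counted over the set, few of these genes were called between genotypes. At E13.5 none of 9 was called in edgeR, against 0.00606% of the 16508 genes tested, and none had an unadjusted p under 0.05 (3.49% of all genes) or was called in DESeq2 (0.238% of genes with a count). The groups overlapped for each, while they did not for 3.74% of all genes tested. At E18.5 1 of 8 tested was called (Tgfb2), against 4.99% of all genes, 3 had an unadjusted p under 0.05, against 22.2%, and DESeq2 called 2 (Tgfb2, Pmepa1), against 5.39% of genes with a count. Tgfb1 was too low there to be tested. Groups did not overlap for 3 of the 8 (Tgfb2, Tgfbr1, Pmepa1), against 14.8% of all genes tested. At PND8 none of the 8 tested was called in edgeR, against 0.349% of all genes, 3 had an unadjusted p under 0.05 (Tgfb3, Tgfbr1, Tgfbi), against 15.0%, and DESeq2 called 2 (Tgfb3, Tgfbr1), against 2.37% of genes with a count. Groups did not overlap for 2 of those 8, against 14.5% of all genes. At 12wk none of 9 was called, against 0.0115% of all genes, 2 had an unadjusted p under 0.05 (Tgfbr3, Ltbp1), against 9.62%, and DESeq2 called none, against 0.974%. Only Tgfbr3 had groups apart, against 8.71% of all genes. Cdkn1b was not called at 12wk either (adjusted p = 0.211 in edgeR), so the lack of calls at that age does not show a lack of change. The median log2 difference over the tested members was -0.13, -0.10, -0.21 and -0.10 at the 4 ages, beside -0.01, -0.04, 0.00 and 0.00 over all genes tested. The genotype by age term was called for none of 8 members in edgeR or DESeq2, against 0.806% and 1.98% of all genes, and 3 had an unadjusted p under 0.05, against 12.7%.

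**Figure D4:**
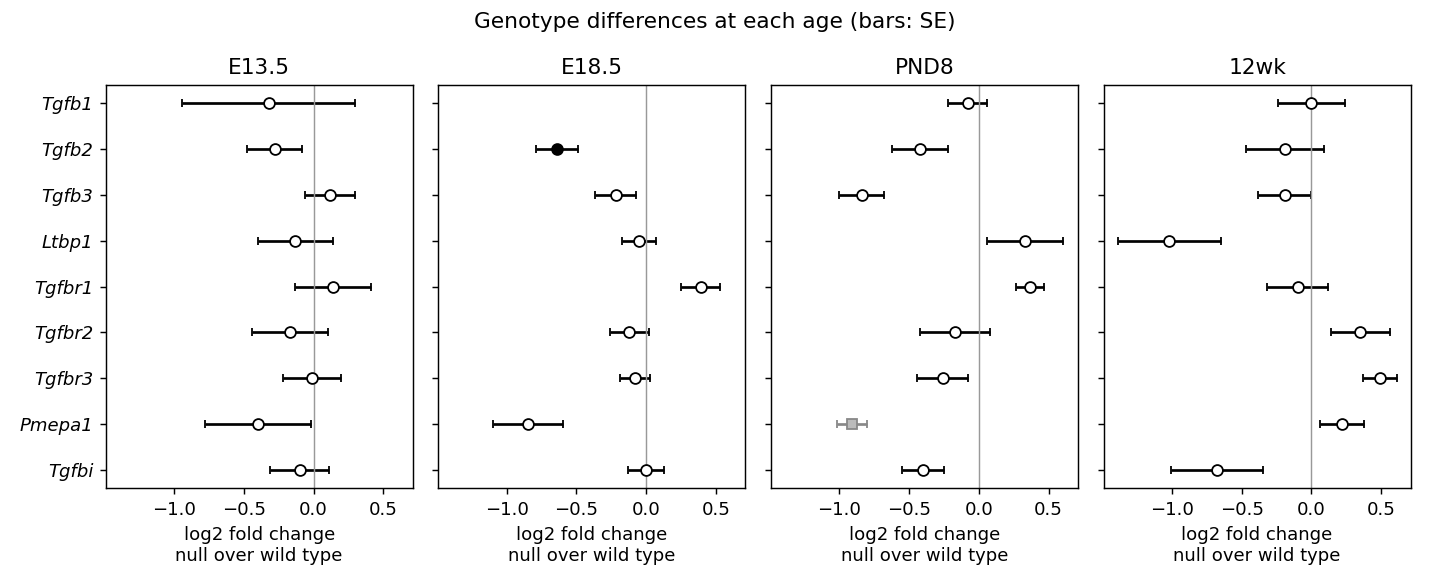
Log2 fold change of null over wild type for the 9 genes at each age, with SE as bars; the filled circle is called (adjusted p under 0.05), open circles are not, and the grey square is the Pmepa1 value that was part of the choice of genes. Tgfb2 at E18.5, -0.64, is the only filled circle, and Tgfb1 at E18.5 was too low to test.

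Age moved more of them. From E13.5 to E18.5 in wild type 3 of 8 were called (Tgfb3 and Pmepa1 higher, Tgfbi lower), against 34.0% of all genes tested. From E18.5 to PND8 all 7 tested members were called in wild type, Tgfb2 and Tgfbr1 lower and the others higher, against 74.5% of all genes. With the GC offset 4 kept the call: Tgfb2, Tgfbr2, Tgfbr3 and Ltbp1. From PND8 to 12wk 2 of 7 were called, Ltbp1 higher and Tgfb3 lower, against 30.5%. In null ovaries 3 of 9 were called from E13.5 to E18.5 (Pmepa1 higher, Tgfb1 and Tgfbi lower), against 30.2%, 5 of 7 from E18.5 to PND8, against 77.4%, and 1 of 7 from PND8 to 12wk (Tgfbr3), against 29.1%. In the first of these null steps same-numbered libraries were positively correlated in every pair (0.123 to 0.194), though the labels give no pairing. With the replicate number in the fit as a block, only Tgfbi kept its call. The blocked values were -1.48 (adjusted p = 0.131) for Tgfb1 and 0.83 (adjusted p = 0.0988) for Pmepa1. The Tgfb1 call was also lost in DESeq2 (adjusted p = 0.0539) and whenever a library other than null E18.5 replicate 3 was left out (0.059 to 0.115). Groups did not overlap for 2 of 8, 6 of 7 and 2 of 7 tested members in the 3 wild-type steps, against 34.4%, 70.6% and 34.3% of all genes, and for 4 of 9, 5 of 7 and 1 of 7 in the null steps, against 39.9%, 77.5% and 47.8%. Read against these backgrounds, the counts single out nothing about the 9 genes.

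**Figure D5:**
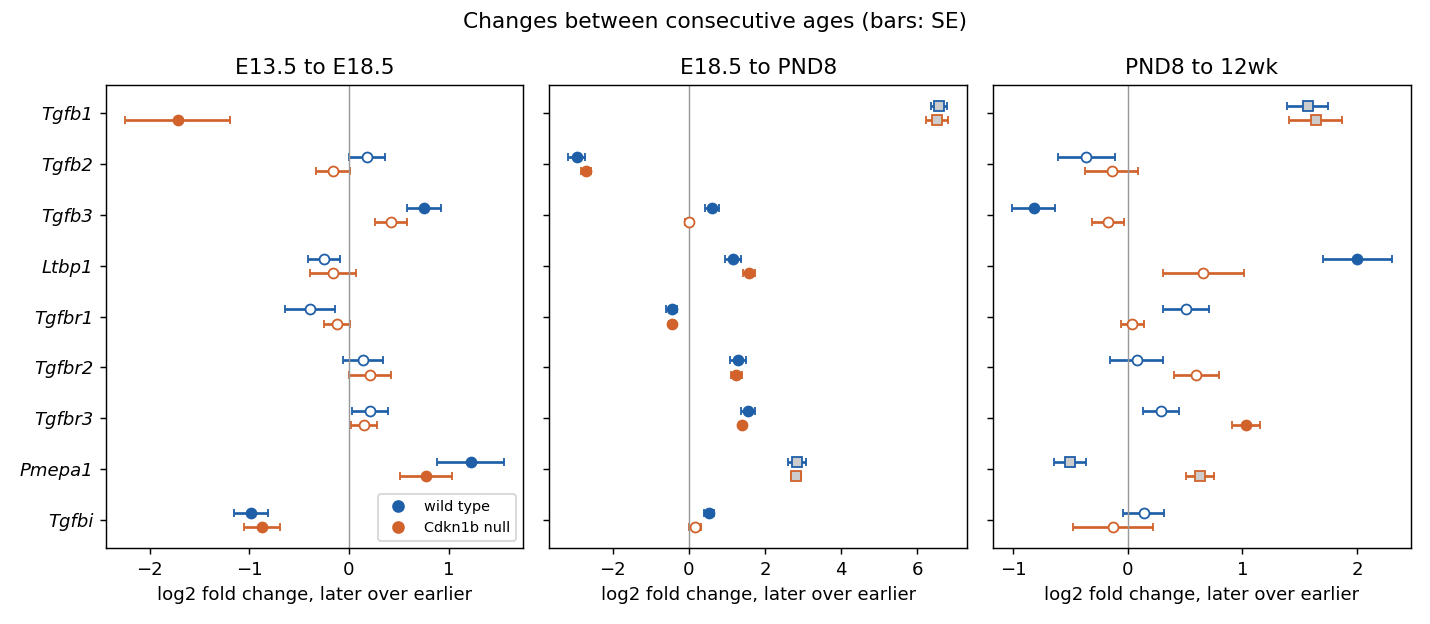
Log2 fold change between consecutive ages for the 9 genes in wild type and null, with SE as bars; filled circles are called, open circles are not, and grey squares are the Tgfb1 and Pmepa1 values that were part of the choice of genes. The middle panel also carries the difference between embryonic and postnatal libraries; wild-type and null markers part most for Ltbp1 (2.00 and 0.66) and Pmepa1 (-0.50 and 0.63) from PND8 to 12wk.

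The wider pathway was read from 65 other genes in 3 lists: 20 for latency and activation (binding proteins, integrins, thrombospondins), 20 for other receptors, Smads and their regulators, and 25 for known target genes. Between genotypes, 0 of 63 tested were called at E13.5, 2 of 62 at E18.5, 1 of 64 at PND8 and 0 of 64 at 12wk, beside the shares of all genes given above. All 3 were targets. Nedd9, a scaffold protein of cell adhesion, was higher in null at E18.5 (42.0 ± 2.15 against 26.0 ± 1.98 CPM, SD, n = 4 each; 0.68, adjusted p = 0.00525). Col5a1, a fibrillar collagen gene, was lower (44.1 ± 5.12 against 69.7 ± 12.7 CPM; -0.67, adjusted p = 0.0223). Its call was lost without wild-type replicate 3 or 4 or null replicate 2, 3 or 4 (adjusted p = 0.0569 to 0.0808). Lmcd1 was lower in null at PND8 (22.6 ± 1.45, SD, n = 3, against 59.5 ± 13.6 CPM, SD, n = 4; -1.41, adjusted p = 0.043). That call was lost when any library but wild-type replicate 3 was left out (adjusted p = 0.056 to 0.185), with all 8 groups in the same fit (0.314), after thinning (0.0511) and with the GC offset (0.0636). Nedd9 kept its call in each of the 16 alternative fits. At E18.5 the median log2 difference was -0.33 over the latency genes, -0.14 over the receptor and Smad genes and -0.31 over the targets, beside -0.04 over all genes. In the same order of lists the medians were -0.13, -0.12 and -0.22 at E13.5, -0.22, 0.03 and -0.15 at PND8, and -0.07, -0.02 and -0.06 at 12wk.

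From E13.5 to E18.5 in wild type, 23 of 63 tested pathway genes rose and 6 fell, 29 called in all, where 34.0% of all genes were called. By list, 10 of 20 latency genes rose and 2 fell, 4 of 20 receptor and Smad genes rose and 3 fell, and 9 of 23 targets rose and 1 fell. The median log2 change was 0.45, beside 0.01 over all genes. In the list for latency and activation, Thbs1 (thrombospondin 1) went from 22.5 ± 9.66 to 190 ± 46.1 CPM (SD, n = 4 each, log2 change 3.07). Ltbp2 rose by 3.78 from a low level, 0.819 ± 0.577 to 11.2 ± 1.61 CPM. The integrin gene Itgb6 fell by 4.48 on the log2 scale, from 4.92 ± 3.14 to 0.218 ± 0.0946 CPM, close to the floor. Itgb3 fell by 2.80, from 19.2 ± 9.59 to 2.79 ± 1.44 CPM. Smad3 went from 58.6 ± 8.30 to 134 ± 31.4 CPM (1.18) and Smad2 fell by 0.51. The target Lmcd1 went from 11.5 ± 5.56 to 106 ± 4.44 CPM (3.21), and Tnc, tenascin C, rose by 1.84.

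From E18.5 to PND8, where age and library cannot be told apart, 45 of 64 rose and 13 fell, where 74.5% of all genes were called. The median log2 change was 1.3, beside 0.01 over all genes. With the GC offset Col1a1, Col3a1, Lox, Ltbp4, Mmp2 and Usp15 lost their calls. Under the same offset Dcn, Skil and Smad6 changed direction (to 0.45, 0.35 and -0.15). Ccn2, a matricellular target, went from 0.416 ± 0.240 to 90.8 ± 39.3 CPM (7.70), Col5a1 from 69.7 to 831 CPM (3.49) and Fbn1, fibrillin 1, from 80.4 to 754 CPM (3.15). The pseudoreceptor gene Bambi fell from 155 ± 30.3 to 29.1 ± 1.59 CPM (-2.49) and the early-response target Klf10 fell by 1.92. From PND8 to 12wk 16 of 64 rose and 17 fell, where 30.5% of all genes were called. Those that rose included the inhibitory Smad genes Smad6 (1.20) and Smad7 (0.94), and those that fell included the matrix genes Postn, from 113 ± 9.06 to 14.5 ± 5.34 CPM (-2.89), and Col5a1 (-1.53). The pathway genes named here for the largest changes of an age step had adjusted p of 0.034 or below in edgeR. Those named for the GC offset were called without it, at adjusted p under 0.05.

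In bulk RNA, fewer cells of a type and less RNA per cell cannot be told apart. The summed level of 6 stroma and theca markers (Dcn, Lum, Pdgfra, Tcf21, Nr2f2, Col1a1) ran from 1936 to 3481 CPM in wild type and 1640 to 2935 in null at E18.5, with 2 of 6 called lower in null, and from 3438 to 5070 and 2581 to 4820 at PND8, with 1 of 6 called lower. The granulosa markers (Foxl2, Amh, Fshr, Inha, Cyp19a1, Nr5a2) summed to 120.1 to 184.5 CPM in wild type and 185.5 to 350.9 in null at E18.5, with 2 of the 5 tested called higher, and to 2918 to 3570 and 3461 to 3796 at PND8, with none called. The 4 steroidogenic markers summed to 149.7 to 251.4 and 274.9 to 365.8 CPM at E18.5, with 1 called higher. At PND8 they summed to 1073 to 1398 and 1410 to 2295, with none called. Sums at 12wk stood apart for 5 smooth muscle markers (480.3 to 567.1 in wild type, 612.1 to 1427 in null). They also did for erythroid (87.48 to 159.0 and 220.9 to 811.8) and germ cell markers (4.937 to 55.75 and 3.77 to 4.502). No tested marker of any list was called at 12wk. From E18.5 to PND8 in wild type all 6 granulosa markers were called higher, as were 3 of the stroma markers, with 2 lower. In this step age and library cannot be told apart. With the GC offset Col1a1, called higher, lost its call (0.13, adjusted p = 0.647), and Dcn, called lower, turned to 0.45. None of these markers was at 0 in all libraries of an E18.5 or PND8 group. Dcn and Col1a1 of the stroma list, and Acta2 and Cnn1 of the smooth muscle list, were also on the pathway lists. Those marker sums are therefore not separate from the pathway genes. The part of cell make-up in the results above was not tested.

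Over the 29 libraries, with each group's mean removed, the Pearson correlation with the log2 stroma and theca sum was 0.81 for Tgfbr2, 0.68 for Tgfb3, 0.61 for Tgfb2, 0.55 for Tgfbr3 and Tgfbi, 0.21 for Tgfbr1, 0.00 for Ltbp1, -0.19 for Pmepa1 and -0.26 for Tgfb1. Sums of other marker lists also gave large values of either sign. They gave 0.61 for Tgfbr2 with mesonephros, 0.53 for Tgfbi with endothelium and 0.48 with macrophages. For Tgfb2 they gave 0.48 with macrophages and -0.51 with steroidogenic markers. None of these was larger in size than the same gene's stroma value. For Tgfbr1, Ltbp1, Pmepa1 and Tgfb1 another list gave a larger size than stroma. These values were -0.48 with germ cell, -0.47 with granulosa, 0.46 with smooth muscle and 0.44 with erythroid markers, in that order. The haemoglobin-rich E13.5 library had an erythroid sum of 206500 CPM, beside a median of 8835 in its group. It also held the highest embryonic Tgfb1 value, on 24 counts. How much of the 0.44 rests on that library was not tested. Between members, on the same residual scale, Tgfb2 and Tgfbr2 gave 0.75, Tgfb2 and Tgfbi 0.72, Tgfbr2 and Tgfbi 0.72, and Tgfbr1 and Pmepa1 -0.64. These are descriptions: the points share libraries and scaling. On log2 CPM without removing group means, the gene most like Tgfb1 among 16151 searched was Plekhm1 (r = 0.99), most like Tgfb2 was Ly6h (0.973), like Pmepa1 Antxr1 (0.985), like Tgfbr3 Spock2 (0.976) and like Ltbp1 Ptk2b (0.952). Tgfbr3 was the second most like Tgfbr2 (0.958), after Cped1 (0.972). Tgfb3 was closest to Sdc2 (0.87), Fat4 and Col3a1, Tgfbr1 to Capn7 (0.841) and Tgfbi to Igsf9b (0.77). Most of these correlations span the gap between embryonic and postnatal libraries.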

How the data were processed

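Per the file headers, the deposited values are gene-level expected counts that the authors made with RSEM, which divides reads that fit several genes and so need not give whole numbers (31.4% of values above 0 were not whole). The submitters' processing notes name Trim Galore, FastQC 0.11.5, STAR 2.5.2 and RSEM 1.3.0. The genome build, library kit and strandedness are not given in the sources used here. Counts were rounded to whole numbers. Symbols were matched by ID for 51633 of 51912 IDs. All 39 replicate pairs differed by more than sampling noise (chi-square per degree of freedom 14.11 to 316.58).

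Each comparison was fitted on the libraries of its groups with edgeR 4.0.16 (R 4.3.3): TMM, filterByExpr (minimum count 10, minimum total 15), robust quasi-likelihood F test and Benjamini-Hochberg adjustment over all genes tested, threshold 0.05. The genotype by age term used all 29 libraries. Fold changes come from these fits, so they can differ slightly from ratios of the printed CPM. The fits were tested on simulated counts. Alternatives were DESeq2 1.42.0, RLE scaling, no filter, all groups in the same fit, the replicate number as a block, thinning to the smallest library and leaving out each library; an offset for transcript GC content, alone and with the block, was chosen after seeing the data. Replicate numbers come from the sample titles. The closest link between same-numbered libraries was for null E13.5 and E18.5, with correlations of 0.123 to 0.194. Every pair was also positive between genotypes at E18.5 (0.04 to 0.14) and 12wk (0.039 to 0.189). The labels give no pairing.

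The members and gene lists were chosen with earlier results of these data known. All members are named. Pathway genes are named if called between genotypes, up to 5 for each list and age. In wild-type age steps they are named if among the 2 largest called changes each way of each list. From E18.5 to PND8 in wild type, those that lost their call or changed direction with the GC offset are named as well. For each member the 3 most correlated genes with a regular symbol were sought, and the text gives the first or more of them. Promoter windows came from RefSeq (GRCm38.p6) and positions from GENCODE M21 (GRCm38), which may not be the authors' annotation.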

Additional observations from a re-analysis of the deposited data

Results flagged for a closer look

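Pmepa1 moved in opposite directions from PND8 to 12wk in the 2 genotypes. The log2 fold change was -0.50 in wild type, where each 12wk library lay below each PND8 library, and 0.63 in null, where each 12wk library lay above each PND8 library. The wild-type gap was narrow, with 57.3 CPM in the highest 12wk library and 57.9 in the lowest PND8 library. The difference between the genotypes was not tested, because the PND8 values of this gene were part of its choice. Those values enter both steps, so the opposite directions are partly a result of that choice.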

How the results depend on the processing

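In most settings the members kept their direction and their side of the threshold. Exceptions by setting follow. Those with a library left out are given with each gene above or at the end of this section. DESeq2 called 2 members at E18.5, 2 at PND8 and 2 in null from PND8 to 12wk (Tgfbr2 added), added Tgfbr1 in wild type in that step (adjusted p = 0.0498) and lost Tgfb1 in null from E13.5 to E18.5 (0.0539), and 298, 739, 1676 and 71 genes in all at 12wk, PND8, E18.5 and E13.5, where edgeR called 2, 62, 814 and 1. It called 723 genes for the genotype by age term, where edgeR called 164. With all groups in the same fit, 68 genes were called at 12wk, 0 at PND8 and 59 at E13.5, Tgfb2 lost and Pmepa1 gained its call at E18.5, and Tgfbr1 lost its call from E18.5 to PND8 in both genotypes (0.118 and 0.136). RLE scaling lost Pmepa1 in null from E13.5 to E18.5 (0.0595). Without the filter on low counts, 258 genes were called at PND8 and 12 at 12wk, and 1 member in null from E13.5 to E18.5 (Tgfb1, 0.0826, and Pmepa1, 0.101, lost). Thinned to the smallest library, 24 genes were called at PND8. With the GC offset, 6 genes were called at PND8 and 6 at 12wk, and 4 members in wild type from E18.5 to PND8. The Tgfbr1 change from E18.5 to PND8 reversed to 0.15 in wild type and 0.06 in null. Tgfb1 went from 6.58 to 6.37 in that wild-type step.

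With the replicate block, 7 genes were called at PND8 and 0 at 12wk, 1 member in wild type from PND8 to 12wk (Tgfb3 lost its call, adjusted p = 0.0514) and 1 in null from E13.5 to E18.5. The GC offset with the replicate block gave 4 genes at PND8 and 0 at 12wk. In the labels, same-numbered libraries share only a number. Their mean correlation between genotypes was 0.101 at 12wk, 0.091 at PND8, 0.102 at E18.5 and -0.018 at E13.5. It was 0.167 in the null step from E13.5 to E18.5. The block changed no other member call.

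Leaving out each library in turn gave 0 to 2 members at E18.5 and 0 at the other ages. All genes called ranged from 0 to 1 at E13.5, 246 to 1372 at E18.5, 0 to 147 at PND8, 0 to 3 at 12wk and 73 to 235 for the genotype by age term. In wild type, 2 to 4, 6 to 7 and 2 to 3 members were called in the 3 consecutive steps. In null it was 1 to 3, 5 to 6 and 1 to 2, and all genes called from PND8 to 12wk ranged from 2643 to 5130. Wild-type Tgfbr1 gained calls from E13.5 to E18.5 without E13.5 replicate 3 (-0.59, adjusted p = 0.0228) and from PND8 to 12wk without 12wk replicate 3 (0.0259). Calls gained in null without E13.5 replicate 1 were Tgfb3 (0.0206) and Tgfbr2 (0.0327) from E13.5 to E18.5. Null Tgfbi gained a call into PND8 without PND8 replicate 4 (0.0412). Null Tgfbr2 gained it to 12wk without 12wk replicate 3 (0.0394) or PND8 replicate 1 (0.0459). Except where named, the cause was not tested. Depth limits Tgfb1 at E18.5, where it rested on 2 to 8 counts a library over both genotypes.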
